A study of Mus musculus with 6 samples.

Results

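The 10 genes described here encode enzymes that hepatocytes near the portal vein use to make urea and glucose: the urea cycle genes Cps1, Otc, Ass1, Asl, Arg1 and Nags, the gluconeogenesis genes Pck1 and G6pc, and the amino acid breakdown genes Sds and Hal. They were chosen by symbol, all 10 stand among the 16603 genes of the count table, and all 10 passed the filter on low counts. RNA from bulk mouse liver was sequenced in 3 libraries labelled as Mdr2-knockout and 3 labelled as wild type, called knockout-labelled and wild-type-labelled here. Mdr2 (gene symbol Abcb4) carries phospholipid across the hepatocyte membrane to the bile, and its loss in mice is used to study long-lasting damage of bile ducts. The labels give tissue and genotype, with no age, sex, strain, diet, feeding state, time of day or allele. Whether each library is a different mouse is not stated, and p-values therefore reflect only how far these libraries spread, which may be technical. Columns named N were taken as wild-type because no other group was left for them, and every direction given depends on this.

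The urea cycle turns ammonia, set free when amino acids are broken down, into urea. Cps1 makes carbamoyl phosphate in mitochondria with the cofactor that Nags supplies, Otc joins it to ornithine, Ass1 and Asl convert citrulline through argininosuccinate to arginine, and Arg1 releases urea and returns ornithine. Pck1 catalyses the committing step of gluconeogenesis from oxaloacetate, and G6pc the last step, which frees glucose for export. Sds turns serine into pyruvate, and Hal takes ammonia from histidine. All of these lie mostly on the periportal side of the liver lobule, and Pck1, G6pc and Sds are known to follow fasting hormones.

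Totals ran from 17100393 to 18124467 counts per library. Abcb4, the targeted gene, was at 482 ± 42.4 CPM in the knockout-labelled libraries and 324 ± 48.1 CPM in the wild-type-labelled libraries (SD, n = 3 each; log2 fold change 0.57, SE 0.12, edgeR adjusted p = 0.00389), which goes against the label. The labels do not say which part of the gene the allele removes, so a count over the whole gene cannot check the genotype, and groups are named here by their labels. CPM are counts per 1000000 after TMM scaling, which sets libraries level over the bulk of genes. The edgeR test, at an adjusted p under 0.05, called 37.1% of 12612 tested genes, 20.9% as higher and 16.3% as lower in knockout-labelled libraries. Alb, the albumin gene that defines hepatocytes, was at 49431 ± 849 CPM in knockout-labelled and 85361 ± 4347 CPM in wild-type-labelled libraries (SD, n = 3 each). In bulk tissue, fewer cells of a type and less RNA per cell cannot be told apart.

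The promoters of the lower genes Pck1, Hal and Nags and of G6pc, the other glucose-output gene, are shown because Pck1 and G6pc act in the same pathway and only Pck1 passed the test. That alone does not show that Pck1 and G6pc changed differently. The sequences are from RefSeq (GRCm38.p6), lie on the plus strand and cover the bases before the gene start. They end where the GENCODE gene model starts, if that is earlier. Of the 10 genes, 6 had an entry. Capitals mark the motif matches described after them, on either strand.
Pck1 (chr2:173152823-173153047): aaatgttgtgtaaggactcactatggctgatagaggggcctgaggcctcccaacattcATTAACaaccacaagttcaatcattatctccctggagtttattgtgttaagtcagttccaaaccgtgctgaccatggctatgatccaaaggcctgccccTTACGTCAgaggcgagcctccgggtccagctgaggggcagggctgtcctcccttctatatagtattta
G6pc (chr11:101367466-101367560): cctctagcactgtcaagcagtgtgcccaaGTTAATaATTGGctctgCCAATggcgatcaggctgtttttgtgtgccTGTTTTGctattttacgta
Hal (chr10:93488518-93488767): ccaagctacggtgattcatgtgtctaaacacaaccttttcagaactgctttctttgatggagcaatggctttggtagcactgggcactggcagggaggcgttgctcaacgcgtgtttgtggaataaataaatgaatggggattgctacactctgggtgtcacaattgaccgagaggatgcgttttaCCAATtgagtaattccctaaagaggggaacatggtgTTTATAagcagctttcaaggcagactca
Nags (chr11:102145263-102145512): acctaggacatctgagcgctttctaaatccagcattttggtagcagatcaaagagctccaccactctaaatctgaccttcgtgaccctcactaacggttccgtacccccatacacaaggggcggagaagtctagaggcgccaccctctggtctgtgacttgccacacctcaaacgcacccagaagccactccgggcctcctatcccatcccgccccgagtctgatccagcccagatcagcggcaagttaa

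Motifs were searched on both strands in the 250 bases before each RefSeq start. The letters TTACGTCA, a variant of the cAMP response element, begin 93 bases before the Pck1 start and occur in 0.477% of 27025 promoters of the same length; its core TGACG lies inside them on the minus strand and occurs in 17.9%. The full element TGACGTCA, in 1.62% of promoters, was not found in any of the 6 windows. The G6pc window holds TGTTTTG, letters known from insulin response elements (5.55% of promoters), GTTAAT, part of an HNF1 site (6.52%), CCAAT (34.5%) and, in the part not printed, TATAAA (13.0%). Pck1 also holds GTTAAT, on the minus strand, and Hal holds CCAAT and, on the minus strand, TATAAA. The FOXA letters TGTTTAC (3.09% of promoters) were found in none of the 6 windows, and none of the 8 motifs in that of Nags. These matches describe letters and do not show binding.

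With TMM scaling, 4 of the 10 genes were lower in the knockout-labelled libraries (Asl, Nags, Pck1 and Hal), 0 were higher and 6 did not pass. Lower calls made up 16.3% of all tested genes. The median log2 fold change of the 10 genes was -0.18, against 0.01 over all tested genes. For each of the 4 lower genes, every knockout-labelled library lay below every wild-type-labelled library. Groups did not overlap for 51.3% of tested genes, 27.5% in the higher and 23.8% in the lower direction.

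**Figure D1:**
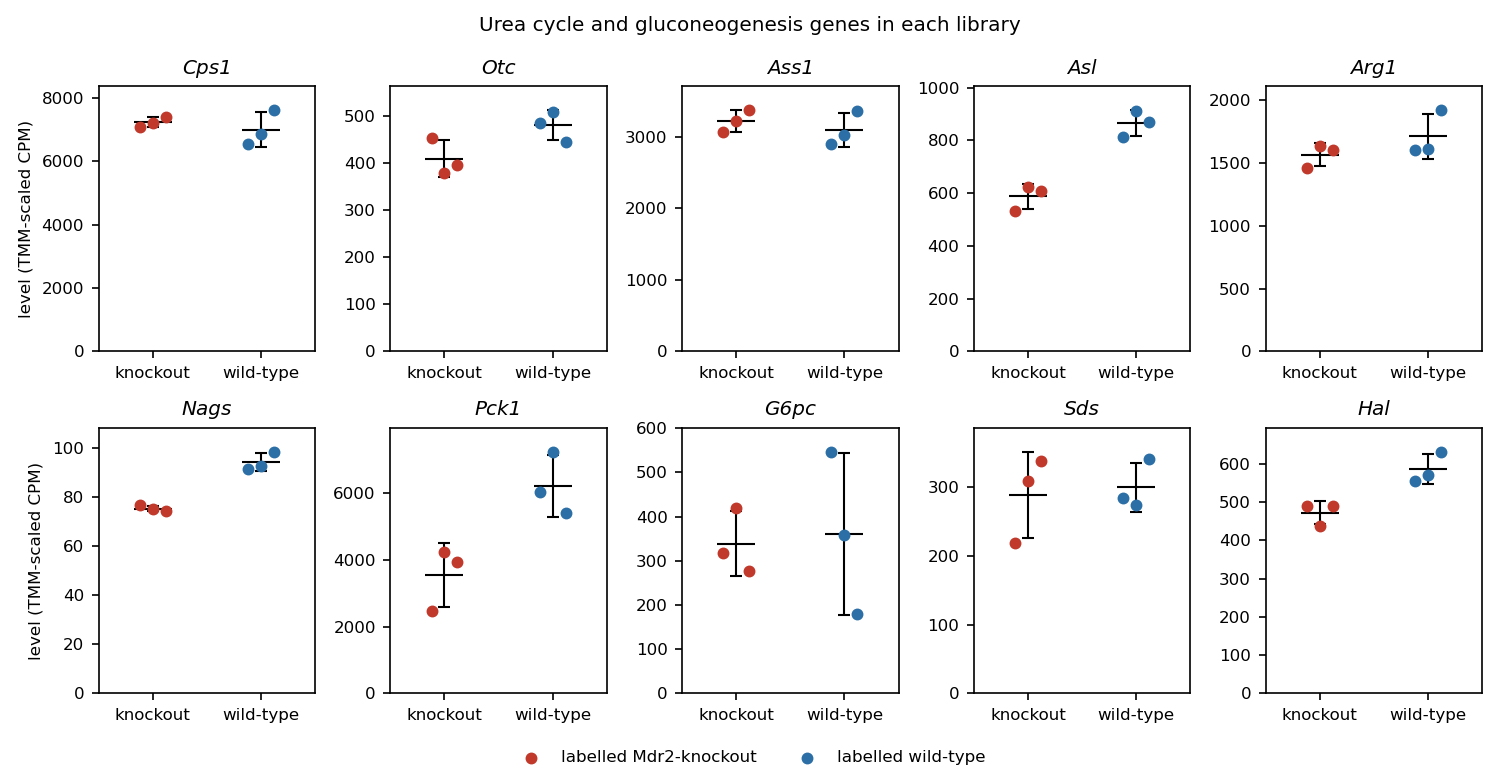
Levels of the 10 genes in TMM-scaled CPM (y axis, from 0) in the knockout-labelled (left, red) and wild-type-labelled (right, blue) libraries. Each point is a library, and the black bars give the mean and SD of 3. Asl, Nags, Pck1 and Hal are separated between the groups, and G6pc has its widest spread among the wild-type-labelled libraries.

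Cps1 and Otc, the first steps of the cycle, did not pass the test. Cps1, the most abundant of the 10 by CPM and on chromosome 1 (67123026 to 67231259, plus strand, GRCm38), was at 7099, 7199 and 7401 CPM in the knockout-labelled libraries and 6532, 6855 and 7616 CPM in the wild-type-labelled libraries. The groups overlapped, and the spread among the wild-type-labelled libraries was wider than the gap between the means (log2 fold change 0.05, SE 0.08, edgeR adjusted p = 0.69, 95% interval -0.14 to 0.24). Otc, on the X chromosome, was at 454, 380 and 396 CPM in the knockout-labelled libraries and 486, 510 and 446 CPM in the wild-type-labelled libraries. These overlapped in a single library of each group, and the difference missed the threshold (log2 fold change -0.23, SE 0.09, edgeR adjusted p = 0.0793). It passed without knockout-labelled replicate 1 (adjusted p = 0.0371) or without wild-type-labelled replicate 3 (adjusted p = 0.045).

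Nags, on chromosome 11 (102145513 to 102149477), makes N-acetylglutamate, without which Cps1 is inactive. It was at 76.6, 75.1 and 74.3 CPM in the knockout-labelled libraries and 91.6, 92.7 and 98.3 CPM in the wild-type-labelled libraries. Replicates lay close together in both groups, and Nags fell by 20.0% in the knockout-labelled libraries (log2 fold change -0.32, SE 0.06, edgeR adjusted p = 0.00321). It kept its call without any 1 library (highest adjusted p = 0.0134), but not with total counts (log2 fold change -0.03, adjusted p = 0.734), and its sign turned with plasma protein scaling (0.28). An antisense gene, Gm11586, covers 698 bases of Nags and is not among the counted symbols; without a stated strand setting its reads could not be told apart.

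The neighbouring steps Ass1 and Asl parted: Asl was lower and Ass1 did not pass. Ass1, which joins citrulline to aspartate, was at 3068, 3223 and 3368 CPM in the knockout-labelled libraries and 2899, 3017 and 3354 CPM in the wild-type-labelled libraries, with the groups overlapping (log2 fold change 0.06, SE 0.09, edgeR adjusted p = 0.624, 95% interval -0.13 to 0.25). Asl, which splits the product of Ass1 and lies on chromosome 5 (130011258 to 130029247, minus strand), was at 534, 622 and 607 CPM in the knockout-labelled libraries and 813, 913 and 868 CPM in the wild-type-labelled libraries. The highest knockout-labelled library thus lay well under the lowest wild-type-labelled library, and Asl fell by 32.0% (log2 fold change -0.56, SE 0.09, edgeR adjusted p = 0.00119). Asl kept its call without any 1 library (highest adjusted p = 0.00811), but not with plasma protein scaling (log2 fold change 0.05, adjusted p = 0.63). Among tested genes, 4.54% had a lower log2 fold change than Asl.

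Arg1, the last enzyme of the cycle, was at 1456, 1634 and 1604 CPM in the knockout-labelled libraries and 1605, 1612 and 1918 CPM in the wild-type-labelled libraries. The groups overlapped and it did not pass (log2 fold change -0.13, SE 0.10, edgeR adjusted p = 0.322, 95% interval -0.34 to 0.09). Arg1 is also known from activated macrophages. Of 14 tested macrophage markers, 8 were higher and 0 lower in the knockout-labelled libraries, with Lyz2 at 212 ± 2.02 CPM in knockout-labelled and 63.4 ± 16.5 CPM in wild-type-labelled libraries, and their summed level was 671 to 770 CPM in those libraries and 332 to 569 CPM in the wild-type-labelled libraries. The part of macrophages in the Arg1 level was not tested.

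Among the glucose genes, Pck1 was lower and G6pc did not pass. Pck1, on chromosome 2 (173153048 to 173159273), was at 2474, 4257 and 3951 CPM in the knockout-labelled libraries and 6045, 7238 and 5412 CPM in the wild-type-labelled libraries. No knockout-labelled library reached the lowest wild-type-labelled library, and knockout-labelled replicate 1 lay apart below its group. Pck1 fell by 42.8%, the largest drop of the 10 (log2 fold change -0.81, SE 0.22, edgeR adjusted p = 0.0285). A lower log2 fold change was found for 1.9% of tested genes. The call rested on few libraries: the adjusted p was 0.0664 without wild-type-labelled replicate 1, 0.0725 without wild-type-labelled replicate 2 and 0.0586 without the filter on low counts. It was 0.0836 with total counts and 0.355 with plasma protein scaling.

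G6pc, on chromosome 11 (101367561 to 101377903), was at 318, 420 and 278 CPM in the knockout-labelled libraries and 546, 358 and 179 CPM in the wild-type-labelled libraries. The wild-type-labelled libraries alone spanned 3.06-fold, more than any other of the 10 genes in either group, and enclosed all knockout-labelled values. The comparison (log2 fold change -0.09, SE 0.46, edgeR adjusted p = 0.901) has a 95% interval of -1.30 to 1.12, which covers the change seen for Pck1 and one of that size in the other direction. Wild-type-labelled replicate 3 was the lowest library for G6pc and the highest wild-type-labelled library for Cps1, Ass1, Arg1, Nags, Sds and Hal.

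Sds was at 219, 309 and 339 CPM in the knockout-labelled libraries and 284, 274 and 341 CPM in the wild-type-labelled libraries, with overlap (log2 fold change -0.05, SE 0.16, edgeR adjusted p = 0.828). Knockout-labelled replicate 1, the lowest for Pck1, was also the lowest for Sds. On the opposite strand Sds overlaps Plbd2 over 651 bases and the antisense gene Gm15690, not among the counted symbols, over 1062 bases, and reads there could not be told apart. Hal, on chromosome 10 (93488768 to 93519304), was at 490, 439 and 491 CPM in the knockout-labelled libraries and 556, 570 and 631 CPM in the wild-type-labelled libraries. These did not overlap, and Hal fell by 19.2% (log2 fold change -0.31, SE 0.09, edgeR adjusted p = 0.0197), a call lost without knockout-labelled replicate 2 (adjusted p = 0.0699) and with upper-quartile scaling (adjusted p = 0.0545) or total counts (adjusted p = 0.909). Its sign turned with plasma protein scaling (0.30).

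Levels of different genes were compared in the deposited FPKM, which divide by gene length and by the library total. In the knockout-labelled libraries the order of mean FPKM was Ass1 (2185 ± 99.4), Pck1 (1493 ± 393), Cps1 (1418 ± 31.4), Arg1 (1173 ± 65.1), Asl (344 ± 25.9), Sds (218 ± 46.5), Hal (189 ± 13.1), G6pc (166 ± 34.9), Otc (95.4 ± 9.66) and Nags (39.4 ± 0.774; SD, n = 3 each). In the wild-type-labelled libraries Pck1 came first (2133 ± 297), before Ass1 (1711 ± 122), Cps1 (1120 ± 82.6), Arg1 (1047 ± 107), Asl (413 ± 16.9), Hal (191 ± 12.2), Sds (184 ± 22.1), G6pc (145 ± 75.7), Otc (91.3 ± 5.93) and Nags (40.2 ± 1.48; SD, n = 3 each). The ranges overlapped for Pck1 with Cps1 and Arg1 in the knockout-labelled group, for Pck1 with Ass1, Cps1 with Arg1 and G6pc with Otc in the wild-type-labelled group, and among Sds, Hal and G6pc in both. Ass1, Cps1, Arg1 and Pck1 stood among the 64 most abundant tested genes per length, while Nags ranked 1284th. The gene length behind the FPKM of Otc was 4.76 kb, against 2997 bases for its longest GENCODE transcript, and the order was not recomputed with another length.

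**Figure D2:**
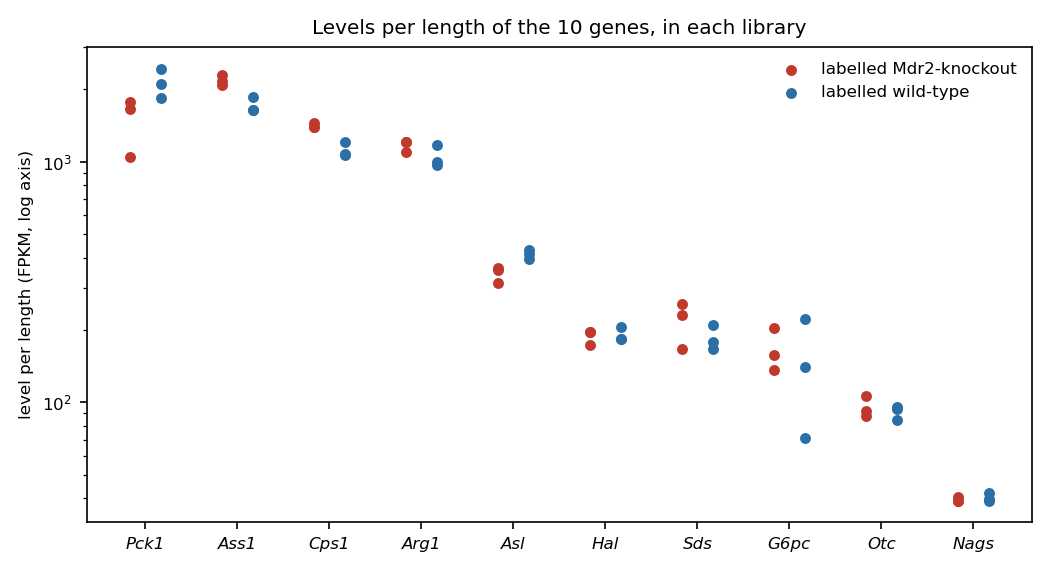
Level per length in deposited FPKM (y axis, log scale) of the 10 genes in each library, knockout-labelled (red, left of each pair) and wild-type-labelled (blue, right), ordered by the wild-type-labelled mean. Pck1 heads the wild-type-labelled order and Ass1 the knockout-labelled order.

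How the genes stood between the groups depended on what the libraries were scaled to. Against TMM, scaling by total counts moved the median log2 fold change over the 12612 genes by 0.29, and scaling by the summed counts of 19 plasma protein genes moved it by 0.60. Relative to that moving median, the median of the 10 genes stayed at -0.19 under each of the 5 scalings. A change of scaling moves all genes by nearly the same amount, so this distance was bound to stay and is no finding about the 10 genes. With total counts, Cps1 (log2 fold change 0.34, edgeR adjusted p = 0.0066) and Ass1 (0.35, adjusted p = 0.00699) were higher, Asl was lower, and the other 7 did not pass. That scaling called 49.6% of all tested genes, 47.0% higher and 2.62% lower. With plasma protein scaling, 7 of the 10 were higher and 0 lower, where 83.5% of all tested genes were called, 82.8% higher and 0.698% lower. Cps1 (0.65), Ass1 (0.66), Sds (0.55), Arg1 (0.47), Otc (0.38), Hal (0.30) and Nags (0.28) were those 7, and Asl (0.05), Pck1 (-0.21) and G6pc (0.50) did not pass. Alb, whose levels are given above, makes up a large part of the summed plasma protein counts. Under that scaling the 19 plasma protein genes themselves had a median of 0.13, with 4 higher and 2 lower.

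**Figure D3:**
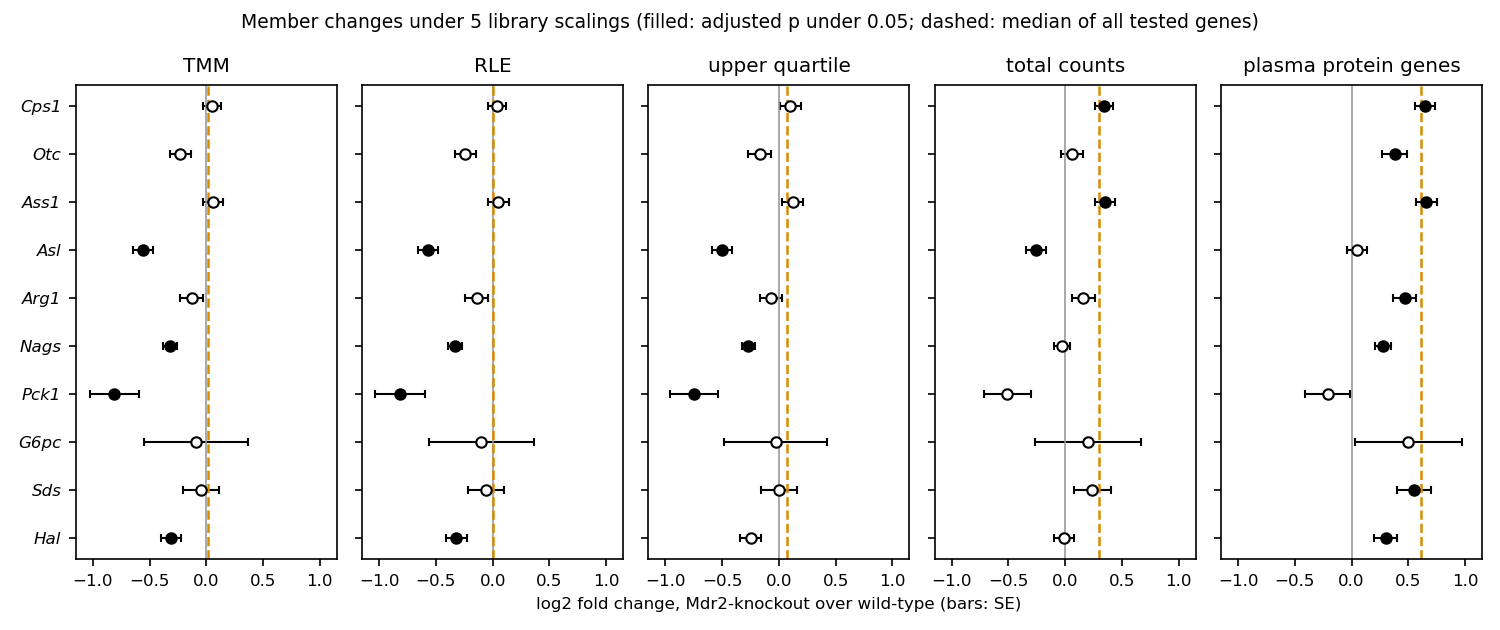
Log2 fold change of each gene, knockout-labelled over wild-type-labelled (x axis, bars are SE), under 5 scalings of the libraries. Filled points have an adjusted p under 0.05 and the dashed line is the median of all tested genes; the order of the genes hardly moves while zero shifts, so that Asl is lower in 4 panels and not called in the last.

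Ratios between 2 genes of a library do not depend on scaling. Asl over Ass1 in FPKM was 0.15, 0.167 and 0.155 in the knockout-labelled libraries and 0.242, 0.261 and 0.223 in the wild-type-labelled libraries, 0.651 times as high in the knockout-labelled group and with no overlap. Ass1 over Cps1, by contrast, was 1.54 ± 0.0404 in knockout-labelled and 1.53 ± 0.00721 in wild-type-labelled libraries (SD, n = 3 each) and overlapped. Nags over Cps1 was 0.0278 ± 0.00101 in the knockout-labelled and 0.036 ± 0.00148 in the wild-type-labelled libraries, and Pck1 over Cps1 was 1.05 ± 0.272 in knockout-labelled and 1.92 ± 0.373 in wild-type-labelled libraries, both with no overlap. Pck1 over G6pc was 9.17 ± 2.79 in knockout-labelled and 17.6 ± 8.23 in wild-type-labelled libraries, with overlap. These ratios were chosen after their values were seen, and 3 libraries against 3 cannot give an exact permutation p under 0.1.

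Cps1 over Alb was 0.0534 ± 0.00124 in the knockout-labelled libraries and 0.03 ± 0.00363 in the wild-type-labelled libraries (SD, n = 3 each), with no overlap, and Alb itself fell (log2 fold change -0.79, edgeR adjusted p = 5.46e-05). Pck1 over Alb was 0.0561 ± 0.0143 in knockout-labelled and 0.0569 ± 0.00554 in wild-type-labelled libraries, with overlap. Asl over Alb was 0.0129 ± 0.000849 in knockout-labelled and 0.011 ± 0.000615 in wild-type-labelled libraries. It was higher in the knockout-labelled group, with no overlap, whereas Asl over Ass1 was lower there. The 10 genes together took 1.8%, 2.04% and 2.05% of all counts in the knockout-labelled libraries and 1.83%, 1.91% and 1.88% in the wild-type-labelled libraries. The 6 urea cycle genes alone took 1.41%, 1.44% and 1.49% in the knockout-labelled libraries and 1.14%, 1.16% and 1.29% in the wild-type-labelled libraries, so that the share of the urea genes was larger in each knockout-labelled library while the sum with Pck1 overlapped. These shares are of total counts. In TMM-scaled CPM the 6 urea cycle genes summed to 12688 to 13450 in knockout-labelled and 12427 to 14301 in wild-type-labelled libraries, with overlap.

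**Figure D4:**
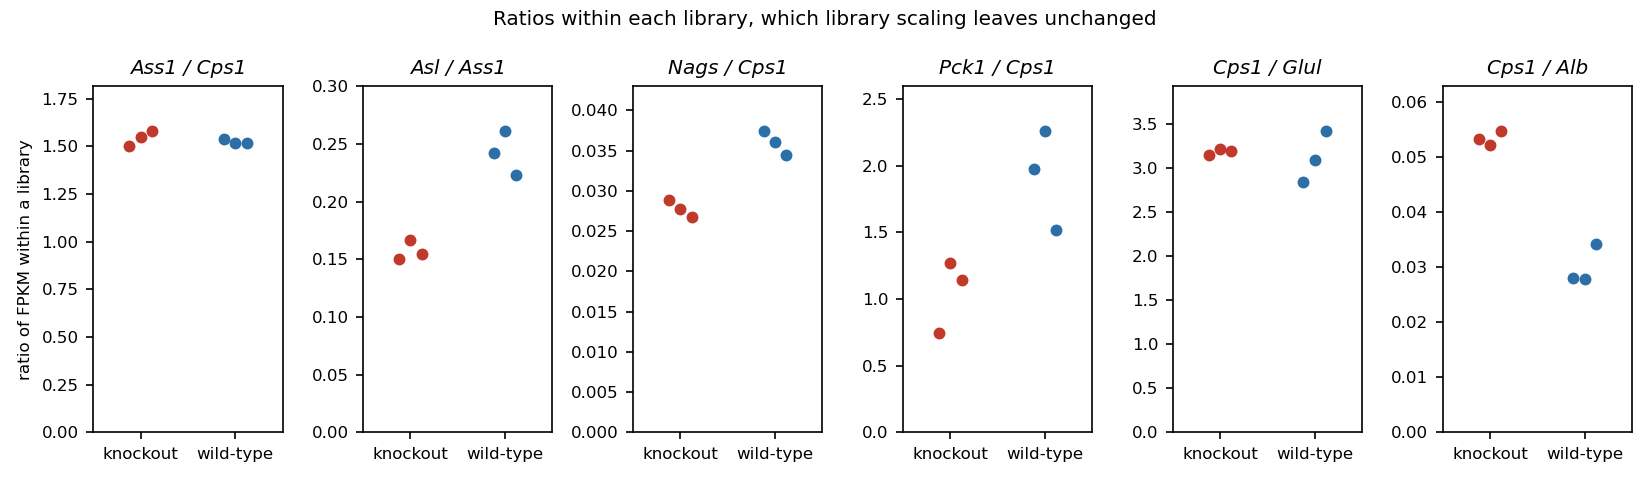
Ratios of FPKM between pairs of genes within each library (y axes, from 0), knockout-labelled left (red) and wild-type-labelled right (blue), a point per library. Ass1 over Cps1 and Cps1 over Glul overlap between the groups, Asl over Ass1, Nags over Cps1 and Pck1 over Cps1 are lower in the knockout-labelled libraries, and Cps1 over Alb is higher.

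Several of the 10 enzymes have a counterpart used in other tissues, and Arg2, Pck2 and G6pc3 were higher in knockout-labelled libraries. Arg2, the mitochondrial arginase of many tissues, was at 0.744 ± 0.122 CPM in the knockout-labelled libraries and 0.233 ± 0.0357 CPM in the wild-type-labelled libraries (SD, n = 3 each; 44 counts over knockout-labelled and 11 over wild-type-labelled libraries; log2 fold change 1.64 with SE 0.44, edgeR adjusted p = 0.0147, lost at 0.0602 without wild-type-labelled replicate 2). Arg1 over Arg2 in FPKM was 2014, 2396 and 1744 in the knockout-labelled libraries and 6056, 8077 and 7294 in the wild-type-labelled libraries, with no overlap. Pck2, the mitochondrial counterpart of Pck1, was at 5.66 ± 1.52 CPM in knockout-labelled and 3.26 ± 0.222 CPM in wild-type-labelled libraries (log2 fold change 0.80, edgeR adjusted p = 0.0163, lost at 0.0675 without knockout-labelled replicate 2). Pck1 over Pck2 was 819 ± 169 in the knockout-labelled and 2460 ± 200 in the wild-type-labelled libraries. The ratios of Sds over its paralog Sdsl and of G6pc over G6pc3, by contrast, overlapped between the groups. They were 0.804 and 0.731 times as high in the knockout-labelled group. G6pc3, the widely expressed glucose-6-phosphatase, was higher (log2 fold change 0.48, edgeR adjusted p = 0.0269), but not with DESeq2 (adjusted p = 0.0544) and not without any of knockout-labelled replicates 2 and 3 or wild-type-labelled replicates 1 and 2 (adjusted p of 0.0733 to 0.0795). In every library Arg1, Pck1 and G6pc were above these counterparts per length.

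Partners of the urea cycle include genes that supply it and genes that use its arginine or ornithine, among them Arg2, Agmat, Odc1 and Oat. Of 19 tested partners, 9 were lower, 2 were higher and 8 did not pass, with a median log2 fold change of -0.27. Glud1, which frees ammonia from glutamate, was at 957 ± 18.4 CPM in the knockout-labelled libraries and 1315 ± 78 CPM in the wild-type-labelled libraries (log2 fold change -0.46, edgeR adjusted p = 0.00189), and Gls2, the periportal glutaminase, at 402 ± 32.5 CPM in knockout-labelled and 571 ± 33.5 CPM in wild-type-labelled libraries (-0.51, adjusted p = 0.00184). The deacylase gene Sirt3 (-0.40), the dicarboxylate carrier gene Slc25a10 (-0.35), the polyamine gene Odc1 (-0.41) and Agmat (-0.53) were also lower and kept their calls without any 1 library. The ornithine carrier Slc25a15, which returns ornithine to the mitochondria, did not pass (log2 fold change -0.04, SE 0.09, edgeR adjusted p = 0.728), nor did Slc25a12, a carrier of aspartate and glutamate. The liver form of that carrier, Slc25a13, was lower (-0.34, adjusted p = 0.0282), a call lost without knockout-labelled replicate 1 or 2 or wild-type-labelled replicate 1 or 2 (adjusted p of 0.0657 to 0.0837). With total counts, 5 partners were higher and 0 lower, against 47.0% and 2.62% of all tested genes. Higher calls numbered 1 without knockout-labelled replicate 1 or wild-type-labelled replicate 2.

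Of 26 tested gluconeogenesis partners, 7 were lower, 3 were higher and 16 did not pass, and the median was -0.10. Pcx, which makes the oxaloacetate that Pck1 uses, was at 521 ± 55.9 CPM in the knockout-labelled libraries and 777 ± 82.6 CPM in the wild-type-labelled libraries (log2 fold change -0.58, edgeR adjusted p = 0.00268). Ldha and Mpc2, which act on lactate and pyruvate, were lower too, with Ldha at 500 ± 52.1 CPM in knockout-labelled and 859 ± 68.8 CPM in wild-type-labelled libraries (-0.78, adjusted p = 0.000321) and the pyruvate carrier subunit Mpc2 at 68.4 ± 4.08 CPM in knockout-labelled and 115 ± 17.1 CPM in wild-type-labelled libraries (-0.75, adjusted p = 0.000582). Slc37a4, which carries glucose 6-phosphate to G6pc, was lower (-0.45, adjusted p = 0.00183). Fbp1, the step between Pck1 and G6pc, did not pass (-0.23, SE 0.12, edgeR adjusted p = 0.145), nor did Tat, Gpt and Gpt2, which hand amino acid carbon to the pathway. Tat (-0.62, adjusted p = 0.107) was lower without knockout-labelled replicate 2 (adjusted p = 0.00814). The partner Slc2a2 was at 189 ± 27.5 CPM in knockout-labelled and 102 ± 33.4 CPM in wild-type-labelled libraries, without overlap. It narrowly missed the threshold (0.89, SE 0.27, edgeR adjusted p = 0.0506) and was higher with DESeq2 (adjusted p = 7.2e-05). Pdk4, which fasting induces and which spares pyruvate, was higher at 14.9 ± 3.45 CPM in knockout-labelled and 6.06 ± 1.6 CPM in wild-type-labelled libraries (1.30, adjusted p = 0.0026). With total counts 10 of the partners were higher and 3 lower, against 47.0% and 2.62% of all tested genes. Ldha and Mpc2 were among the lower.

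In a list of serine, glycine, histidine and sulfur amino acid metabolism, which also holds the methionine enzyme gene Mat1a and the serine synthesis gene Psph, 11 of 17 tested genes were lower, 0 were higher and 6 did not pass, with a median of -0.38. Gldc, the decarboxylase of the glycine cleavage system, was at 293 ± 11.8 CPM in the knockout-labelled libraries and 450 ± 22.7 CPM in the wild-type-labelled libraries (log2 fold change -0.62, edgeR adjusted p = 0.000329), with its partners Amt (-0.42) and Gcsh (-0.32) lower as well. In the histidine pathway that Hal opens, Uroc1 (-0.28, adjusted p = 0.0173, and 0.0573 without knockout-labelled replicate 2) and Ftcd (-0.51, adjusted p = 0.00487) were lower, while Amdhd1, which acts between them, did not pass (0.08, SE 0.09, adjusted p = 0.466). Srr (-0.42) and Shmt1 (-0.50), which also use serine, were lower, and Sdsl, the paralog of Sds, did not pass (0.25, adjusted p = 0.0858; 0.0405 without knockout-labelled replicate 1). With total counts 1 of the 17, Gldc, was lower and 4 were higher, against 2.62% and 47.0% of all tested genes.

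A list of 26 tested genes of hormone and fasting signalling held transcription factors, hormone receptors, insulin signalling genes such as Irs1 and Irs2, and the responsive genes Igfbp1 and Dio1. Of these, 11 were lower, 0 were higher and 15 did not pass, with a median of -0.36. Leaving out 1 library gave 8 to 12 lower and 0 to 1 higher. Nr4a1 had the largest rise, at 11.3 ± 5.93 CPM in knockout-labelled and 2.84 ± 1.66 CPM in wild-type-labelled libraries, without overlap. It did not pass (log2 fold change 1.99, SE 0.67, edgeR adjusted p = 0.0744) but was higher with DESeq2 (adjusted p = 0.0204). Hnf4a, a factor on which many hepatocyte genes depend, was at 843 ± 113 CPM in the knockout-labelled libraries and 1280 ± 170 CPM in the wild-type-labelled libraries (log2 fold change -0.60, edgeR adjusted p = 0.00441). Foxo1, which insulin restrains, was at 53.3 ± 9.26 CPM in knockout-labelled and 86.9 ± 11.4 CPM in wild-type-labelled libraries (-0.70, adjusted p = 0.00629), and Klf15, a factor for amino acid breakdown genes, at 204 ± 32.4 CPM in knockout-labelled and 325 ± 34.9 CPM in wild-type-labelled libraries (-0.67, adjusted p = 0.00312). The hormone receptors Gcgr for glucagon (-0.36) and Insr for insulin (-0.34) were both lower, as was Cebpa (-0.53). Ppargc1a (0.22, SE 0.27, adjusted p = 0.561), Igfbp1 (-0.36, SE 0.69, adjusted p = 0.728) and Nr3c1 (-0.17, adjusted p = 0.0859) did not pass. Igfbp1, which fasting raises, averaged 90.7 ± 53.1 CPM in knockout-labelled and 116 ± 65.2 CPM in wild-type-labelled libraries. With total counts 2 genes of this list were lower, Foxo1 and Klf15, and 3 were higher. Of all tested genes, 2.62% were lower and 47.0% higher there.

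**Figure D5:**
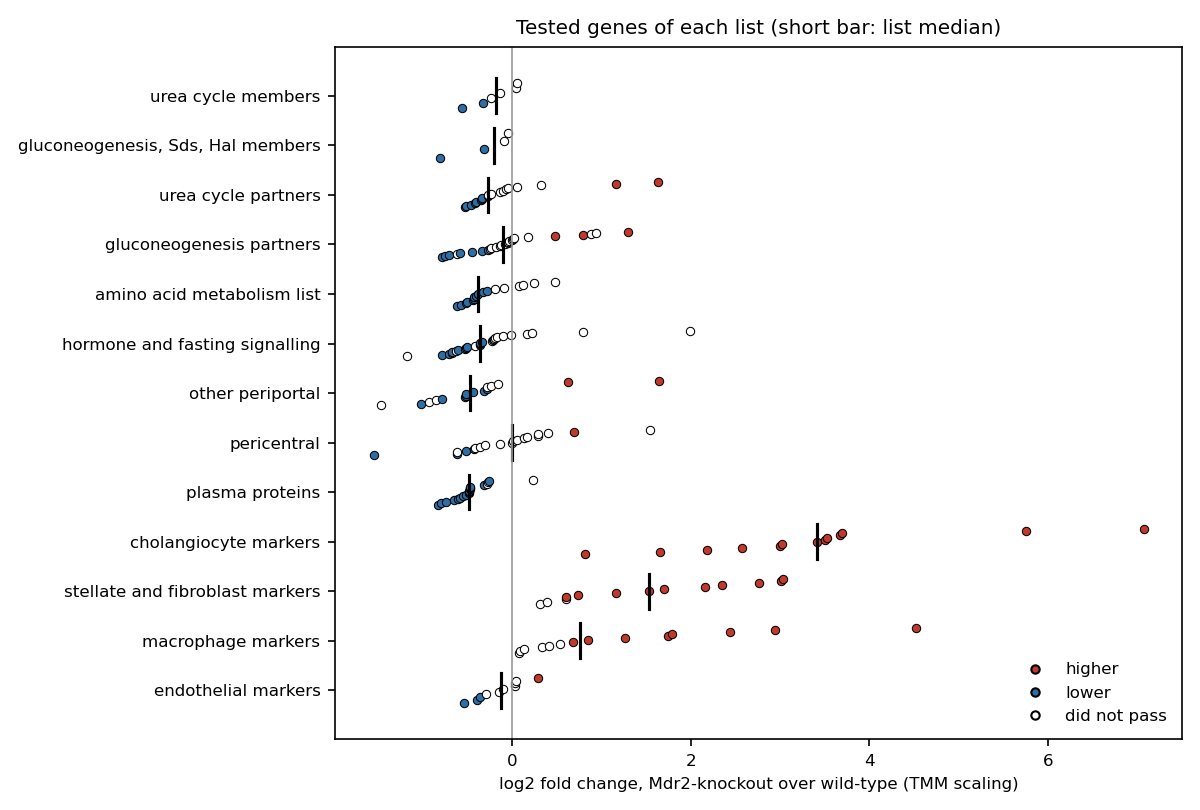
Log2 fold change, knockout-labelled over wild-type-labelled with TMM scaling (x axis), of each tested gene by list; red and blue points are higher and lower calls, white points did not pass, and short bars are list medians. Medians of the hepatocyte metabolic lists lie between -0.48 and 0.00, and those of the cholangiocyte, stellate and macrophage markers at 3.41, 1.53 and 0.77.

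Of 16 other periportal genes tested, 8 were lower, 2 were higher and 6 did not pass, with a median of -0.48; Gls2, Uroc1, Ftcd and Fbp1 also stand in the partner lists. Lower calls numbered 5 without knockout-labelled replicate 2. With total counts 2 were higher and 2 lower, and with plasma protein scaling 7 were higher and 0 lower. Of all tested genes, those scalings called 47.0% and 82.8% higher, and 2.62% and 0.698% lower. With TMM, Apof (-0.53), Apoa4 (-0.78) and Vtn (-0.44) were lower. Hsd17b13, a lipid droplet enzyme, was higher at 581 ± 45.7 CPM in the knockout-labelled libraries and 377 ± 20.7 CPM in the wild-type-labelled libraries (log2 fold change 0.63, edgeR adjusted p = 0.00055). Cdh1, a periportal adhesion gene that bile duct cells also express, was higher at 131 ± 11.7 CPM in knockout-labelled and 41.8 ± 6.76 CPM in wild-type-labelled libraries (1.65, adjusted p = 2.71e-05).

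On the pericentral side of the lobule, 4 of 19 tested genes were lower, 1 (Slc1a4) was higher and 14 did not pass, with a median of 0.00. With total counts 6 were higher and 2 lower, and with plasma protein scaling 10 were higher and 1 lower. Of all tested genes, those scalings called 47.0% and 82.8% higher, and 2.62% and 0.698% lower. Higher calls numbered 0 without knockout-labelled replicate 1 or 2 or wild-type-labelled replicate 2, and the median was -0.20 without knockout-labelled replicate 1. Cyp2e1 was at 3248 ± 607 CPM in the knockout-labelled libraries and 9492 ± 610 CPM in the wild-type-labelled libraries (log2 fold change -1.55, edgeR adjusted p = 4.35e-05), a larger change than in any of the 10 genes. Glul, which takes up the ammonia that the urea cycle leaves, was at 1128 ± 21.1 CPM in knockout-labelled and 1119 ± 22.8 CPM in wild-type-labelled libraries (0.01, SE 0.08, adjusted p = 0.913), and neither Oat nor Cyp1a2 passed. Cps1 over Glul in FPKM was 3.15, 3.22 and 3.19 in the knockout-labelled libraries and 2.84, 3.09 and 3.42 in the wild-type-labelled libraries, with overlap. The mean log2 CPM of the 10 genes minus that of the 19 pericentral genes was 2.76, 3.27 and 3.19 in the knockout-labelled libraries and 3.18, 3.26 and 3.19 in the wild-type-labelled libraries. Knockout-labelled replicate 1 thus lay lowest, and the other 5 libraries were within a narrow band.

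Markers of cholangiocytes and of stellate cells and fibroblasts were mostly higher in knockout-labelled libraries, while endothelial markers went both ways. All 13 tested cholangiocyte markers were higher, with a summed level of all 14 measured of 393 to 431 CPM in the knockout-labelled libraries and 55.1 to 69.8 CPM in the wild-type-labelled libraries. Of 13 stellate and fibroblast markers 10 were higher and 0 lower (702 to 846 CPM in knockout-labelled and 286 to 441 CPM in wild-type-labelled libraries), and of 10 endothelial markers 1 was higher and 3 were lower (317 to 344 CPM in knockout-labelled and 326 to 374 CPM in wild-type-labelled libraries). With total counts 4 endothelial markers were higher and 1 was lower, against 47.0% and 2.62% of all tested genes. The higher call with TMM was absent without knockout-labelled replicate 1 or 3 or wild-type-labelled replicate 1 or 2. Of 19 plasma protein genes of hepatocytes, 16 were lower and 0 higher, with a median of -0.48 and a summed level of 108966 to 113951 CPM in knockout-labelled and 162952 to 172961 CPM in wild-type-labelled libraries. With total counts 8 of these were lower, 0 were higher and 11 did not pass, with a median of -0.18. Of all tested genes, 2.62% were lower and 47.0% higher there. The part of these shifts in the levels of the 10 genes was not tested. Fat cells also use Pck1. Cidec, the only adipocyte marker tested, was at 2.62 ± 2.33 CPM in knockout-labelled and 0.381 ± 0.129 CPM in wild-type-labelled libraries (SD, n = 3 each) and was higher (log2 fold change 2.75, edgeR adjusted p = 0.0298). That call was lost with limma-voom (adjusted p = 0.0767) and without wild-type-labelled replicate 1 (0.102), 2 (0.0778) or 3 (0.109). Adipoq had 15 counts over the knockout-labelled and 3 over the wild-type-labelled libraries, and Plin1 had 4 and 0 over the same groups. The part of fat cells in the Pck1 level was not tested.

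Over the 6 libraries, the gene whose log2 CPM followed Asl most closely among 7867 tested genes with a mean of at least 10 CPM was Brap (Pearson r = 0.998), and those for Pck1, Nags and Hal were Cic (0.999), F2 (0.997) and Ces3b (0.992). For Cps1, Ass1 and Arg1 they were Plxna1 (0.994), Jak3 (0.977) and Mtmr1 (0.983). These values describe likeness over 6 libraries that fall into 2 groups, without a test.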

How the data were processed

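The data are 6 bulk RNA-seq libraries of mouse liver. The authors deposited raw read counts per gene symbol and FPKM of the same genes; per the submitters' processing notes, the tools included HISAT2, StringTie, Cufflinks, HTSeq, DESeq and Trimmomatic, and the build was mm10. What each tool did, its version, the annotation and any strand setting: not given in the sources used here. For each gene the FPKM were proportional to its count over the library total, so they are no independent measurement. Columns without a sample numbered 0.

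Counts were tested with edgeR 4.0.16 (robust quasi-likelihood, TMM, filterByExpr with minimum count 10 and total 15) on all 6 libraries, with group as the only term and Benjamini-Hochberg adjustment over 12612 genes at a threshold of 0.05. Each adjusted p is from this test unless another tool is named. SE were derived from the F statistic, and 95% intervals from the moderated degrees of freedom. A log2 mean used a pseudocount of 0.5 CPM. The pipeline was tested on simulated data in which few genes changed, in both directions, so the choice of scaling was not tested by it.

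The 10 genes and all lists were chosen with earlier results of these data known. Named were the 10 genes, Abcb4, list genes mostly with the smallest p or highest level, and the closest profiles. Coordinates are GENCODE M21 (GRCm38). Alternatives were 4 other scalings, DESeq2 1.42.0, limma-voom (limma 3.58.1), 2 filters, a replicate block and each library left out.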

Additional observations from a re-analysis of the deposited data

How the results depend on the processing

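The 4685 changed genes became 10533 with plasma protein scaling, and the 4 changed members became 7 there. Members higher, 0 with TMM, numbered 2 with total counts and 7 with plasma protein scaling. Members lower, 4 with TMM, numbered 1 and 0 there. Of all tested genes, 20.9% were higher with TMM, 47.0% with total counts and 82.8% with plasma protein scaling. The shares lower were 16.3%, 2.62% and 0.698%. Leaving out 1 library gave 3 to 5 changed members, 0 to 0 higher and 3 to 5 lower, and 3541 to 4609 changed genes.

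Asl kept its call and direction under all alternatives but plasma protein scaling, where its log2 fold change was 0.05, and Nags under all but total counts and plasma protein scaling (0.28). Hal reached 0.30 with plasma protein scaling. With total counts and plasma protein scaling, the signs of Otc (0.06 and 0.38), Arg1 (0.16 and 0.47), G6pc (0.20 and 0.50) and Sds (0.24 and 0.55) turned; these were not called with TMM. G6pc also turned with limma-voom (0.03), with the replicate block (0.03), without knockout-labelled replicate 3 (0.03) and without wild-type-labelled replicate 1 (0.33). Sds turned with upper-quartile scaling (0.00), without knockout-labelled replicate 1 (0.11) and without wild-type-labelled replicate 3 (0.04). Cps1 turned without wild-type-labelled replicate 1 (-0.01). Over the 6 fits that left out 1 library, log2 fold changes ran from -0.01 to 0.10 for Cps1, from -0.43 to 0.33 for G6pc and from -0.19 to 0.11 for Sds. The scalings differ by construction in their zero; other causes were not tested.

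Same-numbered libraries share only a number: the correlations of their deviations from the group means were 0.084, 0.045 and -0.076, and the replicate block gave 4568 changed genes and 4 changed members. Within each group, counts of any pair of libraries differed beyond sampling noise, the lowest chi-square over its degrees of freedom being 16.85. G6pc had 2835 counts or more in each library, with a wide spread.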
